A study of Mus musculus with 8 samples.

Results

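The genes described here control the first gap phase (G1) of the cell cycle, from the D-type cyclins and their kinases to the Cdk inhibitors, the retinoblastoma protein and p53. They were chosen by symbol, and all 10 members (Ccnd1, Ccnd2, Ccnd3, Cdk4, Cdk6, Cdkn1a, Cdkn1b, Cdkn2c, Rb1 and Trp53) were found among the 38026 genes listed. All 10 were also among the 15262 genes that reached at least 1 TPM (a gene's share of the transcripts of its library, corrected for gene length and scaled to the same total in each) in at least 3 libraries and were tested. RNA for bulk sequencing came from mouse brain cells pulled out with beads against CD11b, a surface integrin chain carried by myeloid cells. Of the libraries, 5 hold tumor-associated microglia and macrophages (TAMs) isolated from medulloblastoma, a cerebellar tumor, in C57BL/6 mice 68, 90, 61, 66 and 62 days old for replicates 1 to 5. The other 3 hold normal microglia from the cerebral cortex of C57BL/6 mice 60 days old. The sources used here give neither the genotype behind the tumors nor any pooling of animals. Tumor, brain region and age differed together between the groups and cannot be told apart. Nothing in the labels says whether libraries of a group came from separate mice, so p-values measure only the spread between these libraries.

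In G1, mitogens raise the D-type cyclins, which bind Cdk4 or Cdk6 and phosphorylate the retinoblastoma protein, releasing E2F transcription factors that switch on genes for DNA synthesis. The INK4 inhibitors, among them p18 (Cdkn2c), bind Cdk4 and Cdk6, while p21 (Cdkn1a) and p27 (Cdkn1b) bind cyclin-kinase complexes, and p53 raises p21 after damage. Microglia divide slowly in the healthy brain and proliferate around injury and tumors.

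Normal microglia and TAMs differed in which G1 genes were abundant. Ccnd1 and Ccnd3 were 2.94-fold and 3.34-fold higher in microglia by mean TPM, and Cdkn2c was 2.74-fold higher in TAMs. With libraries rescaled by their median ratio, the same folds were 1.79, 2.02 and 4.52. By mean TPM, Cdk4 was the most abundant of these genes in TAMs, at 109 TPM. In microglia the means of Ccnd3, Cdkn1a, Ccnd1 and Cdk4 lay together between 83.8 and 94.6 TPM, with Ccnd3 at 66.2 to 109 TPM in single libraries. On TPM, 1 member rose in TAMs (Cdkn2c) and 7 fell, while Ccnd2 and Cdk4 were not called (limma on log2(TPM + 1), Benjamini-Hochberg adjusted p of 0.05 over all genes tested), 8 called in all. Among all tested genes 64.6% were called in either direction. The 7 that fell became 4 without TAM replicate 1, TAM replicate 3, microglia replicate 2 or microglia replicate 3, and without TAM replicate 1 Cdk4 was called higher too.

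Those counts follow a shift of the whole table. Of all tested genes, 8.22% were called higher and 56.4% lower in TAMs, and the median log2 fold change was -0.65, beside -0.72 for the members. The features Mir6236, Mir6240 and Gm15662 held 13.6% to 25.6% of the summed TPM in TAM libraries and 3.20% to 15.3% in microglia libraries. Genes at 1 TPM or more numbered 12683 to 14242 in TAM libraries and 14375 to 16619 in microglia libraries. After each library was divided by its median ratio to the geometric mean library (rescaled TPM), the median of all tested genes was -0.039 and that of the members -0.081. On that scale 2 members rose (Cdk4 and Cdkn2c) and 2 fell (Ccnd1 and Ccnd3), beside 24.6% and 25.1% of all tested genes (49.7% in either direction). In the deposited table of the authors, whose DESeq2 p-values were adjusted here, 2 members were higher and 2 lower, against 17.6% and 16% of the genes with a p-value (33.6% in either direction). They were the same 4 genes as on rescaled TPM. The shares of members called therefore lie near those of all genes, and the results rest on the single genes. Ccnd1, Ccnd3 and Cdkn2c, 3 members, were called in the same direction on TPM and on rescaled TPM, as were 33.3% of all tested genes. The groups did not overlap for 1 higher and 5 lower members on TPM, beside 7.97% and 49.7% of all tested genes (57.7% in either direction), and for 2 higher and 2 lower on rescaled TPM, beside 24.1% and 24.6% (48.7% in either direction). With bulk RNA, fewer cells that express a gene and less of its RNA per cell cannot be told apart.

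**Figure D1:**
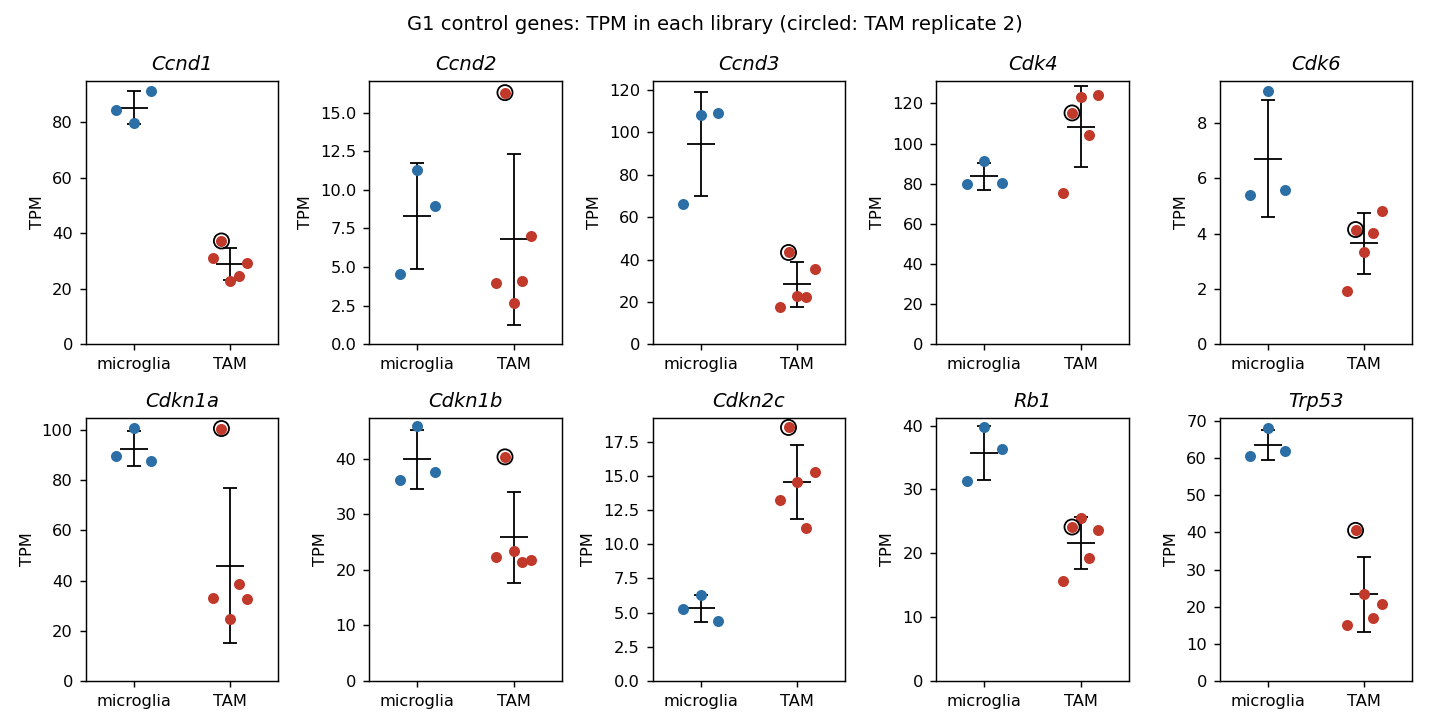
TPM (vertical axes, from 0) of the 10 G1 control genes in each of 3 microglia and 5 TAM libraries (points), with the mean and SD of each group and TAM replicate 2 circled. Ccnd1, Ccnd3, Cdk6, Rb1 and Trp53 lie lower in all 5 TAM libraries than in any microglia library, Cdkn2c lies higher, and TAM replicate 2 has the highest TAM value in 7 of the 10 panels.

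Promoter sequence was at hand for 7 of the 10 members, from RefSeq on GRCm38.p6. The first listed start of each gene was searched over the 250 bases before it, on both strands, for E2F core words (TTCCCGC and also TTGGCGC and also TTCGCGC and also TTGCCGC), the E-box CACGTG bound by Myc and related factors, the AP-1 word TGAGTCA and the CRE word TGACGTCA. These words do not overlap each other in the sequences shown. The promoters of Cdk4 and Cdkn2c are shown because these genes were higher in TAMs on rescaled TPM and in the deposited table and each holds such a word. Capitals mark CACGTG in Cdk4 (chr10:127063285-127063534, plus strand) and the E2F core in Cdkn2c (chr4:109666757-109667006, minus strand). Cdkn2c has 2 listed starts, and its window lies within the deposited coordinates of the gene (109660876 to 109667189). That window is thus downstream of the outermost end of the gene, not upstream of the whole gene.
Cdk4: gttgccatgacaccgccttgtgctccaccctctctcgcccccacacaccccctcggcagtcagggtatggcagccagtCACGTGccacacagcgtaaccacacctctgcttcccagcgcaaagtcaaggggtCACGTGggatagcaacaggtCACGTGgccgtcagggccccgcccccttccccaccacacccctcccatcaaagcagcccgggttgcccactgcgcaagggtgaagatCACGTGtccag
Cdkn2c: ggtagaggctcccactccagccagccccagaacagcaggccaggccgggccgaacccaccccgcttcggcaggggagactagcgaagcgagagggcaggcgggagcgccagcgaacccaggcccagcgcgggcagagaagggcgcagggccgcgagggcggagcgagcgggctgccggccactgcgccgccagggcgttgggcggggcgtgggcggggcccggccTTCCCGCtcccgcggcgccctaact

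CACGTG occurred 4 times in the Cdk4 window, whereas 6.05% of 27025 promoters of the same length held it at all. Only 5 of the 27025 promoters held it 4 times or more, a count taken after the 4 matches were seen. The E2F core occurred 1 time in the Cdkn2c window and in 7.97% of all promoters. Among the 7 members CACGTG was found in 2 (Cdk4 and Cdk6), the E2F core in 1, and the AP-1 and CRE words in 0, with shares of 4.43% and 1.62% over all promoters. The Cdk6 window (3343643 to 3343892, plus strand) also lies within the deposited coordinates of its gene, which start at 3341485. These matches are descriptions of the letters in the windows.

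The D-type cyclins are the regulatory subunits that tie mitogen signals to Cdk4 and Cdk6. Ccnd1 (chromosome 7, 144929931 to 144939869 on mm10) was at 31.1, 37.2, 22.7, 24.5 and 29.4 TPM in TAM replicates 1 to 5. In microglia replicates 1 to 3 it was at 84.6, 79.9 and 91.5 TPM. Every TAM library was thus below every microglia library, and both groups were narrow, with means of 29.0 ± 5.75 TPM (SD, n = 5) in TAMs against 85.3 ± 5.86 TPM (SD, n = 3). Ccnd1 thus had a log2 fold change of -1.54, SE 0.16 (limma, adjusted p = 0.000184). On rescaled TPM it was -0.84, SE 0.20 (limma, adjusted p = 0.00938), and -0.73 in the authors' deposited table (by DESeq2, adjusted p = 0.0138).

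Ccnd3 (chromosome 17, 47505051 to 47599691), the D cyclin known for its part in blood cell growth, was at 17.6, 43.3, 22.9, 22.3 and 35.5 TPM in the TAM libraries and at 66.2, 108 and 109 TPM in the microglia libraries. The groups did not overlap, with TAM replicate 2 nearest to the lowest microglia library. For Ccnd3 this gave a log2 fold change of -1.74, SE 0.31 (limma, adjusted p = 0.00166), and -1.04, SE 0.25, on rescaled TPM (limma, adjusted p = 0.00977). The authors' deposited table gave -0.89 (by DESeq2, adjusted p = 0.00708). Ccnd3 and Ccnd1 were each called in 8 of 8 fits that left out 1 library, on both scales.

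Ccnd2 (chromosome 6, 127125162 to 127152193), the third D cyclin, was much the lowest of the 3. Its levels were 3.98, 16.3, 2.66, 4.10 and 7.01 TPM in TAMs and 4.55, 11.3 and 8.97 TPM in microglia. The groups overlapped fully, and TAM replicate 2 was above every other library. Its log2 fold change, -0.41 with SE 0.50 (limma, adjusted p = 0.490), turned to 0.21 on rescaled TPM (limma, adjusted p = 0.731) and to 0.58 in the authors' deposited table (by DESeq2, adjusted p = 0.475), none of them called.

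Summed over the 3 genes, D cyclin RNA came to 64.1 ± 20.6 TPM in TAMs (SD, n = 5), against 188 ± 28.9 TPM for microglia (SD, n = 3). On rescaled TPM the sum was 76.6 ± 24.6 in TAMs (SD, n = 5), against 136 ± 9.90 for microglia (SD, n = 3). The shares within the sum do not depend on the scaling. Ccnd1 made up 46.7% ± 8.02 (SD, n = 5) of it in TAMs and 46.0% ± 7.52 (SD, n = 3) in microglia. Ccnd3 made up 43.7% ± 6.20 (SD, n = 5) and 49.7% ± 6.22 (SD, n = 3), and Ccnd2 9.54% ± 4.34 (SD, n = 5) and 4.29% ± 1.37 (SD, n = 3).

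The partner kinases split. Cdk4 (chromosome 10, 127063534 to 127067920) was at 75.6, 115, 123, 104 and 124 TPM in TAMs and at 79.6, 91.4 and 80.2 TPM in microglia. Replicates 2 to 5 of the TAMs were above all microglia libraries, and TAM replicate 1 was below them. On TPM Cdk4 had a log2 fold change of 0.35, SE 0.17, and was not called (limma, adjusted p = 0.0938), and it was called without TAM replicate 1 (limma, log2 fold change 0.47, adjusted p = 0.00673). On rescaled TPM the groups no longer overlapped, with TAMs at 101 to 152 and microglia at 56.3 to 67.9. There the log2 fold change reached 1.06, SE 0.14 (limma, adjusted p = 0.000761), and 1.19 in the authors' deposited table (by DESeq2, adjusted p = 6.58e-09).

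Cdk6 (chromosome 5, 3341485 to 3531008), the other kinase of D cyclins, was at 1.93, 4.15, 3.32, 4.01 and 4.82 TPM in TAMs and at 5.39, 9.16 and 5.58 TPM in microglia. The groups did not overlap on TPM, although the gap between 4.82 and 5.39 TPM was small beside their spread. This corresponds to a log2 fold change of -0.73, SE 0.27 (limma, adjusted p = 0.0388). It was -0.14 on rescaled TPM (limma, adjusted p = 0.593) and -0.045 in the authors' deposited table (by DESeq2, adjusted p = 0.936), so the call held on TPM alone. Cdk4 was the main kinase of the pair in every library, with 96.3% to 97.5% of the summed TPM in TAMs and 90.9% to 93.7% in microglia.

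Among the inhibitors, Cdkn2c (chromosome 4, 109660876 to 109667189), which encodes p18 of the INK4 family, stood out. It was at 13.2, 18.6, 14.6, 11.2 and 15.3 TPM in TAMs and at 5.26, 6.32 and 4.37 TPM in microglia. All 5 TAM libraries were above all 3 microglia libraries, at 14.6 ± 2.71 (SD, n = 5) against 5.32 ± 0.975 TPM (SD, n = 3). Cdkn2c had a log2 fold change of 1.30, SE 0.18 (limma, adjusted p = 0.000652). On rescaled TPM it was 1.92, SE 0.18 (limma, adjusted p = 0.000153), and in the authors' deposited table at 2.26 (by DESeq2, adjusted p = 3.32e-19). Cdkn2c was called in 8 of 8 fits that left out 1 library, on both scales.

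Cdkn1a (chromosome 17, 29090979 to 29100722), which encodes the p53-induced inhibitor p21, was at 33.2, 101, 24.8, 38.5 and 32.7 TPM in TAMs and at 89.7, 101 and 87.6 TPM in microglia. TAM replicate 2, at 101 TPM, lay within the microglia range, and the other 4 were all below it. Over all libraries its log2 fold change was -1.18, SE 0.39 (limma, adjusted p = 0.0265) and -0.47 on rescaled TPM (limma, adjusted p = 0.384). Without TAM replicate 2 it was -1.50 (limma, adjusted p = 0.000278), and -0.80 on rescaled TPM (limma, adjusted p = 0.0109). In the other 7 rescaled fits that left out 1 library Cdkn1a was not called. The authors' deposited table gave -0.16 (by DESeq2, adjusted p = 0.897).

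Cdkn1b (chromosome 6, 134920401 to 134925513), which encodes p27, a keeper of quiescence, was at 22.2, 40.3, 23.4, 21.4 and 21.7 TPM in TAMs and at 36.1, 45.9 and 37.6 TPM in microglia. Again TAM replicate 2 alone lay among the microglia libraries. A log2 fold change of -0.64, SE 0.21, on TPM (limma, adjusted p = 0.0276) turned to 0.054 on rescaled TPM (limma, adjusted p = 0.866) and to 0.22 in the authors' deposited table (by DESeq2, adjusted p = 0.676). On TPM, Cdk6, Cdkn1a and Cdkn1b lost their calls in 5, 6 and 5 of the 8 fits that left out 1 library.

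Rb1 (chromosome 14, 73183673 to 73325822) encodes the retinoblastoma protein that holds E2F factors back. It was at 15.6, 24.1, 25.5, 19.2 and 23.7 TPM in TAMs and at 31.3, 39.7 and 36.3 TPM in microglia, without overlap. The log2 fold change of -0.71 on TPM (SE 0.17, limma, adjusted p = 0.00732) was near the median of all genes. It was -0.019 on rescaled TPM (limma, adjusted p = 0.919) and turned to 0.11 in the authors' deposited table (by DESeq2, adjusted p = 0.786).

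Trp53 (chromosome 11, 69580359 to 69591873), which encodes p53, was at 15.1, 40.6, 23.5, 16.9 and 20.8 TPM in TAMs and at 60.5, 68.2 and 61.9 TPM in microglia. No TAM library reached the microglia range, and TAM replicate 2 was the nearest. Trp53 had a log2 fold change of -1.49, SE 0.28, on TPM (limma, adjusted p = 0.00229) and -0.79, SE 0.29, on rescaled TPM (limma, adjusted p = 0.0550). Without TAM replicate 2 the rescaled value was -1.01 (limma, adjusted p = 0.00170). In the other 7 rescaled fits that left out 1 library Trp53 was not called. The authors' deposited table gave -0.60 (by DESeq2, adjusted p = 0.191).

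**Figure D2:**
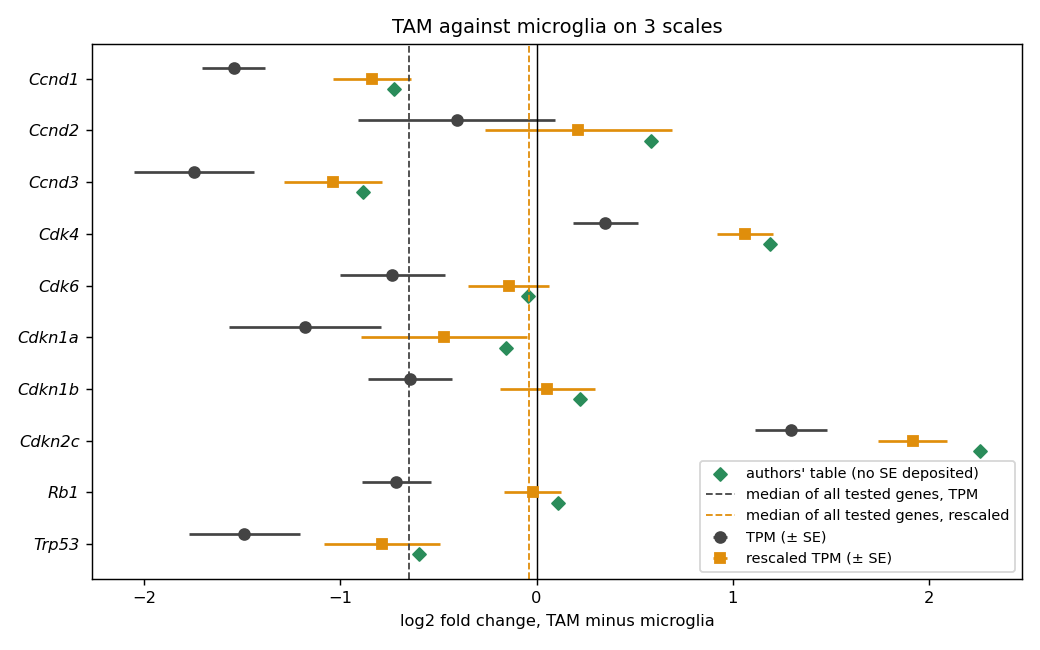
Log2 fold change, TAM minus microglia (horizontal axis), of each G1 control gene on TPM and on rescaled TPM (points with SE) and in the authors' deposited DESeq2 table (diamonds, no SE deposited), with dashed lines at the medians of all tested genes, -0.65 and -0.039. Ccnd1, Ccnd3, Trp53 and Cdkn1a lie below both medians and Cdk4, Cdkn2c and Ccnd2 above both, while Rb1, Cdk6 and Cdkn1b lie close to them. Trp53, Cdkn1a and Ccnd2 were not called on rescaled TPM.

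A ratio of 2 genes within a library does not depend on how the library is scaled, and 7 ratios between members of the same role were compared. Cdk4 over Cdk6 was 25.8 to 39.2 in TAMs and 9.99 to 14.8 in microglia, 2.39-fold higher in TAMs by mean log2 ratio. Cdkn1a over Cdkn2c was 1.70 to 5.42 in TAMs and 15.9 to 20.0 in microglia, a 6.30-fold difference. Cdkn2c over Cdkn1b was 0.461 to 0.704 in TAMs and 0.116 to 0.146 in microglia. Ccnd3 over Ccnd2 was 2.66 to 8.61 in TAMs and 9.59 to 14.5 in microglia.

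In each of these 4 ratios the groups did not overlap, and each gave the smallest p that 5 against 3 libraries allow (exact permutation test, two-sided, p = 0.0357, 0.0625 after Benjamini-Hochberg adjustment over the 7 ratios). None of the 7 was thus under an adjusted p of 0.05. However large its difference, a ratio at the smallest p passes this adjustment only if nearly all the others reach that p too. The lack of a call therefore says little about the size of a difference. With 1 TPM added to both genes before the ratio, the groups did not overlap in 5 of the 7, Ccnd1 over Ccnd2 (log2 difference -1.14) being the fifth, and these 5 lay at the threshold itself (exact permutation test, adjusted p = 0.05). With nothing added, the other 3 ratios overlapped between groups. Their log2 differences, TAM minus microglia, were -1.08 for Ccnd1 over Ccnd2 (exact permutation test, adjusted p = 0.150), -0.21 for Ccnd3 over Ccnd1 (adjusted p = 0.607) and -0.54 for Cdkn1a over Cdkn1b (adjusted p = 0.167).

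**Figure D3:**
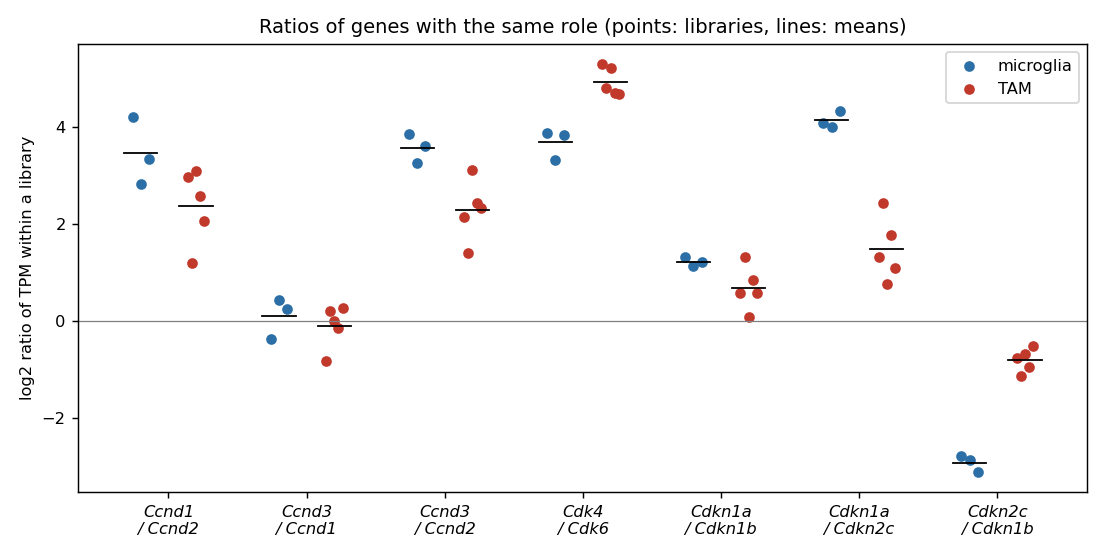
Log2 ratio of TPM within each library (vertical axis) for 7 pairs of G1 control genes of the same role, with microglia (blue) and TAM (red) libraries as points and group means as lines. The groups are apart for Ccnd3/Ccnd2, Cdk4/Cdk6, Cdkn1a/Cdkn2c and Cdkn2c/Cdkn1b and overlap in the other 3.

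By level, Cdk4 led in TAMs (109 ± 20.0 TPM; SD, n = 5), followed by Cdkn1a (46.0 ± 30.9), Ccnd1, Ccnd3, Cdkn1b, Trp53, Rb1, Cdkn2c, Ccnd2 and Cdk6 (3.65 ± 1.10). The ranges of all neighbours in that order overlapped. In microglia the order was Ccnd3 (94.6 ± 24.6 TPM; SD, n = 3), Cdkn1a (92.7 ± 7.02), Ccnd1, Cdk4, Trp53, Cdkn1b, Rb1, Ccnd2, Cdk6 and Cdkn2c (5.32 ± 0.975). There the ranges of neighbours were apart between Cdk4 and Trp53, between Trp53 and Cdkn1b and between Rb1 and Ccnd2. Cdkn2c was last in microglia and the eighth in TAMs.

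Of 32 other regulators of G1, all tested, 7 rose and 18 fell on TPM, and 12 rose and 6 fell on rescaled TPM. These are 21.9% and 56.3% on TPM, beside 8.22% and 56.4% of all tested genes, and 37.5% and 18.8% on rescaled TPM, beside 24.6% and 25.1%. Their median log2 fold change was -0.49 on TPM and 0.20 on rescaled TPM, beside -0.65 and -0.039 for all genes. Ccne1, which encodes cyclin E1, the cyclin that acts after the D cyclins, rose from 0.968 ± 0.289 TPM (SD, n = 3) to 4.24 ± 1.30 TPM (SD, n = 5; log2 fold change 1.39, limma, adjusted p = 0.00130). Ccne2 was at 0.25 (limma, adjusted p = 0.401; 0.71 and called on rescaled TPM, adjusted p = 0.0207). Its kinase Cdk2 was at -0.65 (limma, adjusted p = 0.0142), turning to 0.029 on rescaled TPM (adjusted p = 0.860). E2f1, an activating E2F factor, rose by 1.62 (limma, adjusted p = 0.000322) and Cks1b, a small Cdk-binding protein, by 1.72 (limma, adjusted p = 0.000112).

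The INK4 genes other than Cdkn2c went both ways. Cdkn2a, which encodes p16 and p19Arf from shared exons, was at 0.363 to 1.08 TPM in microglia and 6.36 to 20.5 TPM in TAMs (log2 fold change 3.25, limma, adjusted p = 0.000240). Cdkn2d (p19) was at 0.58 (limma, adjusted p = 0.0128) and Cdkn2b (p15) at -1.26 (limma, adjusted p = 0.00203), and both kept their direction and call on rescaled TPM (1.25 and -0.72). Cdkn2b and Cdkn2d were named after their values were seen. Cdkn1c, which encodes p57 of the p21 family, fell from 22.7 ± 6.33 TPM (SD, n = 3) to 1.14 ± 0.435 TPM (SD, n = 5; log2 fold change -3.46, limma, adjusted p = 4.40e-05). Myc, the growth factor-induced transcription factor, fell by 2.05 (limma, adjusted p = 0.000156; -1.34 rescaled) and the quiescence-linked factor Foxo4 fell by 1.37 (limma, adjusted p = 0.000641; -0.69 rescaled).

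Of 25 genes that E2F factors switch on for S phase, 18 rose and 1 fell on TPM (Slbp, -0.46, limma, adjusted p = 0.0256, but 0.24 and not called on rescaled TPM, nor called on TPM without TAM replicate 3, TAM replicate 4, microglia replicate 2 or microglia replicate 3), with a median log2 fold change of 0.93. On rescaled TPM 24 rose and 0 fell (limma; 0 lower at an unadjusted p of 0.05 as well, and 0 lower in the authors' deposited DESeq2 table), and the median was 1.57. The shares of E2F targets called higher and lower on TPM are 72% and 4%, beside 8.22% and 56.4% of all tested genes. On rescaled TPM they are 96% and 0%, beside 24.6% and 25.1%. Ccna2, which encodes cyclin A2, rose by 2.02 (limma, adjusted p = 0.000150). Rrm2, a subunit of ribonucleotide reductase, rose by 2.53 (limma, adjusted p = 0.000258) and the DNA methylation factor Uhrf1 by 2.12 (limma, adjusted p = 0.000285).

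Of 20 mitosis genes 19 rose on TPM and on rescaled TPM and 0 fell (limma; also 0 at an unadjusted p of 0.05 and in the deposited DESeq2 table), with a median of 1.97 on TPM. The shares of mitosis genes called higher and lower are 95% and 0% on both scales. Of all tested genes they are 8.22% and 56.4% on TPM and 24.6% and 25.1% on rescaled TPM. The 1 mitosis gene that was not called was Cenpf (-0.32 on TPM, limma, adjusted p = 0.212). Mki67, the usual proliferation marker, was at 0.989 to 1.76 TPM in microglia and 7.98 to 17.6 TPM in TAMs. Ube2c (log2 fold change 2.36), Ccnb2 (2.01) and Cdk1 (1.97) were the called mitosis genes with the lowest p. Cdk1, the kinase of mitosis, was at 39.0 to 55.4 TPM in TAMs, below Cdk4 in each of these libraries.

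Among 23 tested p53 target genes 2 rose and 11 fell on TPM, and 8 rose and 4 fell on rescaled TPM, with medians of -0.84 and -0.14. On TPM these are 8.70% and 47.8%, close to the 8.22% and 56.4% of all tested genes, and on rescaled TPM 34.8% and 17.4%, beside 24.6% and 25.1%. On rescaled TPM the 8 became 5 without microglia replicate 2 or microglia replicate 3. The 2 that rose were Gadd45a, a stress gene (log2 fold change 1.20, limma, adjusted p = 0.00548), and Rps27l (0.53, limma, adjusted p = 0.00982). Bbc3, which encodes the death factor PUMA, fell by 2.83 (limma, adjusted p = 1.76e-05; -2.14 rescaled). Btg2, an antiproliferative gene that is also an early response gene, fell by 2.16 (limma, adjusted p = 1.69e-05; -1.44 rescaled) and Perp by 3.33 (limma, adjusted p = 0.000258; -2.77 rescaled). Mdm2, which encodes the ubiquitin ligase of p53, was at -0.85 (limma, adjusted p = 0.00394), but at -0.15 without a call on rescaled TPM (adjusted p = 0.447).

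**Figure D4:**
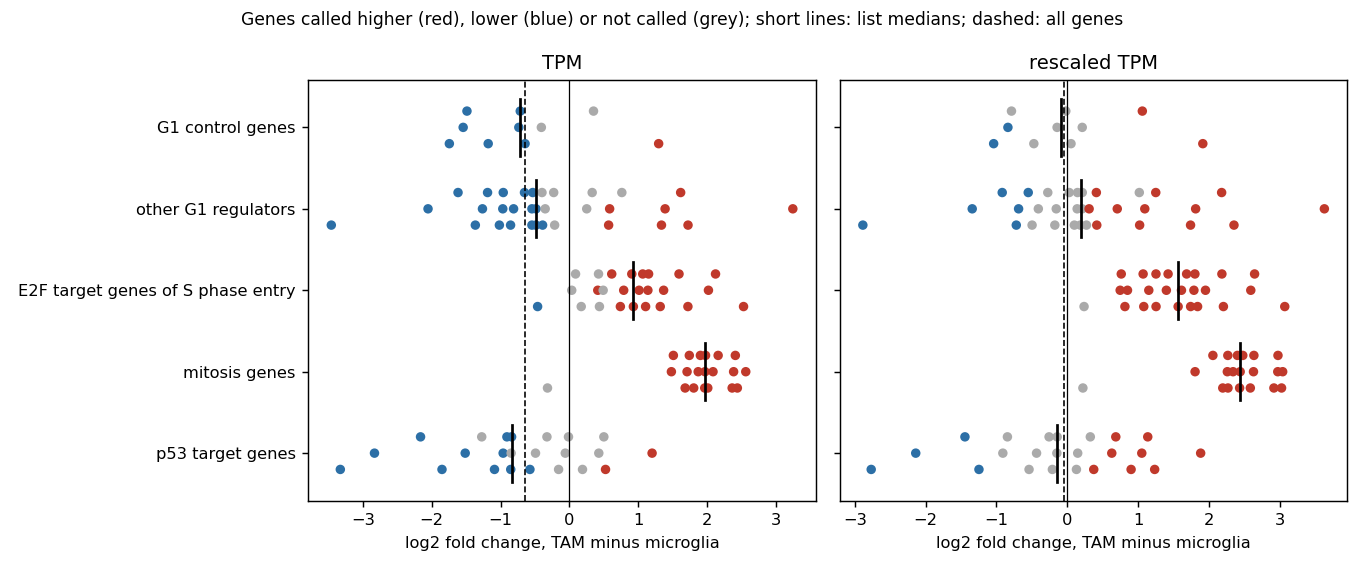
Log2 fold change, TAM minus microglia (horizontal axes), of every tested gene of 5 lists on TPM (left) and rescaled TPM (right), red where called higher, blue where called lower and grey where not called; short lines are list medians and dashed lines the medians of all tested genes. The G1 control genes have medians of -0.72 and -0.081, close to all genes, while the E2F target genes have medians of 0.93 and 1.57.

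Markers of the captured cells were abundant in both groups. The 10 markers of CD11b cells, Ctss among them, summed to 10574 to 18374 TPM in TAMs and 17470 to 21358 TPM in microglia. Markers of other cell types moved with the groups. Those of endothelial cells (15, led by Ly6c1 and Cldn5) summed to 19.9 to 125 TPM in TAMs and 797 to 2616 TPM in microglia, those of mural cells (10, led by Vtn and Rgs5) to 7.50 to 27.7 and 358 to 942 TPM, and those of astrocytes (12, led by Gfap and Slc1a3) to 16.9 to 77.7 and 117 to 803 TPM. Oligodendrocyte markers (9, led by Mbp and Cnp) summed to 45.7 to 57.0 and 150 to 800 TPM, with Opalin at 0 in all 5 TAM libraries. Early response genes (17, led by Zfp36 and Junb), which rise during tissue dissociation, summed to 3202 to 4487 TPM in TAMs and 13062 to 14012 TPM in microglia. On TPM all 15 endothelial, 10 mural and 17 early response genes were called lower in TAMs, as were 10 of the 12 astrocyte and 7 of the 7 tested oligodendrocyte genes, beside 56.4% of all tested genes. On rescaled TPM 15 endothelial, 9 mural, 12 early response, 10 astrocyte and 6 oligodendrocyte genes were called lower, beside 25.1% of all tested genes. Their part in the lower Ccnd1, Ccnd3, Cdkn1a and Trp53 of TAMs was not tested. Among the microglia libraries, replicate 1 had the lowest endothelial sum and 84.6 TPM of Ccnd1, between the other 2, but the lowest Ccnd3. The summed TPM of the 10 members was also lowest there, at 463 TPM, against 561 and 523 TPM in replicates 2 and 3. These values are on TPM alone, and no relation between the markers and the members was tested.

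TAM replicate 2, labelled 90 days old, had the highest TAM value of 7 of the 10 members. It also had the lowest sum of CD11b cell markers, 10574 TPM against 16120 to 18374 elsewhere among TAMs. Its neutrophil markers (10, led by S100a9 and S100a8, with Ly6g at 0 in all microglia libraries) summed to 538 TPM, against 73.7 to 194 for the remaining TAM libraries and 17.3 to 33.8 in microglia. Lymphocyte markers (10, led by Igkc and Cd79b) were at 85.3 TPM there, within the 53.4 to 607 of the others. The part of these cells in its G1 gene levels was not tested. Tumor lineage markers (16, led by Zic1 and Zic2, with Atoh1 at 0 in microglia) summed to 105 TPM in TAM replicate 5, 9.54 to 23.8 in the other TAM libraries and 17.9 to 75.7 in microglia. Ccnd1 and Ccnd2, which granule neuron precursors also express, were at 29.4 and 7.01 TPM in replicate 5, within the range of the other TAM libraries. The part of tumor cells in the Ccnd1 and Ccnd2 levels was not tested.

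Reads of some members may be shared with other genes. Exons of 7 members overlap exons of another gene on the opposite strand in GENCODE M21, and whether the counting used strand is not stated in the sources used here. Ccnd1 shares 1100 exon bases with LTO1, which was at 14.8 to 27.4 TPM in TAMs and 16.9 to 24.4 TPM in microglia, against 22.7 to 37.2 and 79.9 to 91.5 TPM for Ccnd1. Cdk4 shares 641 exon bases with Tspan31, which was at 51.8 to 70.9 TPM in TAMs and 81.1 to 89.4 TPM in microglia. Cdk4 itself was at 75.6 to 124 and 79.6 to 91.4 TPM. Rb1 shares 488 exon bases with Rcbtb2, at 134 to 311 TPM in TAMs and 95.9 to 123 TPM in microglia. It also shares 408 exon bases with Lpar6, at 28.6 to 50.7 TPM in TAMs and 65.1 to 74.4 TPM in microglia. The part of these overlaps in the levels of Ccnd1, Cdk4 and Rb1 was not tested. A processed copy of Ccnd3, Ccnd3-ps, matched it over 881 bases at 96.3% identity and was at 0 to 0.502 TPM in TAMs and 0.703 to 1.38 TPM in microglia. Trp53-ps was listed at 0 in all libraries. Cdk6 shares a 128-base stretch at 92.2% identity with Gm12439, listed at 0.462 to 5.14 TPM in TAMs and 13.1 to 19.4 TPM in microglia.

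The tested genes whose pattern over the 8 libraries lay closest to a member were found by the root mean square difference of centred log2(TPM + 1), a difference in log2 units. For Cdkn2c these were P2rx4 (0.084) and Capn1 (0.11), for Ccnd1 Fbxw10 (0.11) and Tmem86b (0.12), and for Cdk4 Snx8 (0.067) and Twf1 (0.069). For Ccnd3 they were Mir7036 and Stard4 (both 0.13). For Cdkn1a (Mmp9 and Slc13a3, 0.20 each) and Ccnd2 (Ccdc109b, 0.20, and Rnf144a, 0.22) the nearest genes were farther away. For Trp53 they were Ctdsp2 and Map3k5 (both 0.16). Those of Cdk6 were Eif4ebp3 (0.088) and Casz1 (0.095), and those of Cdkn1b were Dtx2 (0.083) and Slc25a38 (0.13). Srpk1 (0.069) and Tpra1 (0.083) were nearest to Rb1.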

How the data were processed

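Gene levels were taken from 5 TAM and 3 microglia columns in TPM, a unit the authors calculated, per the file headers. The columns keep no read depth, so no counting error could be given. The same table holds the authors' deposited DESeq2 results, namely a mean normalized signal (used only to describe the table), log2 fold changes and unadjusted p-values. The p-values were adjusted here by the Benjamini-Hochberg method. The submitters' processing notes name the mm10 build, FastQC and DESeq2; no aligner or quantifier is named in the sources used here. A further 3 columns without a sample name were not used.

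Here limma 3.58.1 (R 4.3.3, with a mean-variance trend) was fitted to log2(TPM + 1) of the 15262 genes at 1 TPM or more in at least 3 of the 8 libraries. Fold changes on that scale understate the change of low genes. Rescaled TPM, other pseudocounts and filters, age, a replicate block and left-out libraries were alternatives. Ratios were compared by exact permutation. Pseudogene copies were sought with blastn 2.17.0 at 90% identity or more over at least 100 bases.

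The members and gene lists were chosen with earlier results of these data known. All members were named, as were up to 3 called genes per direction with the lowest p in each pathway list, Ccne1, Ccne2, Cdk2, Mdm2, Cdk1 and Mki67, the 2 most abundant genes of each marker list and the 2 genes most like a member. One marker gene that this rule names is not reported here.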

Additional observations from a re-analysis of the deposited data

Results flagged for a closer look

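TAM replicate 2 stood apart from the other 4 TAM libraries for both inhibitors of the p21 family that are members. Cdkn1a was at 101 TPM there, and its gap to the next TAM library was 0.819 of the whole TAM range. Cdkn1b was at 40.3 TPM, with a gap of 0.896 of the range. In the set of 17 measures examined over the 5 TAM libraries these were 2, and chance alone marks about 1 in 20.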

How the results depend on the processing

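Counts moved on rescaled TPM and in the authors' deposited DESeq2 table, which differs in scaling, test and genes with a p-value (27039 against 15262). In that order, genes called higher went from 1254 to 3755 and 4763, and those called lower from 8610 to 3837 and 4324. Members went from 1 higher and 7 lower to 2 and 2 on both, other G1 regulators from 7 and 18 to 12 and 6 (15 and 6 deposited), E2F targets from 1 lower to 0 on both, and p53 targets from 2 and 11 to 8 and 4 on both. With Mir6236, Mir6240 and Gm15662 left out before TPM was recomputed, members were 2 higher and 4 lower, and 0 E2F targets were lower. Cdk4 was then called higher (limma, adjusted p = 0.0105). Cdk6, Cdkn1a and Cdkn1b lost their calls there (limma, adjusted p = 0.0652, 0.0696 and 0.119). Of all genes, 1769 were then called higher and 7711 lower. A filter of 5 TPM left 4 other G1 regulators higher, with fewer genes tested.

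The sign turned for Ccnd2 (0.21 rescaled, 0.58 deposited), Cdkn1b (0.054 and 0.22) and Rb1 (0.11 deposited). In rescaled fits without 1 library, Ccnd2 ranged from -0.15 to 0.43 (0.29, 0.43, 0.30 and 0.21 without TAM replicates 1, 3, 4 and 5, 0.32 and 0.23 without microglia replicates 2 and 3). Cdkn1b ranged from -0.12 to 0.18 (0.061, 0.069, 0.092 and 0.18 without TAM replicates 1, 3, 4 and 5, 0.048 and 0.020 without microglia replicates 1 and 2), and Rb1 from -0.091 to 0.054 (0.054 and 0.018 without TAM replicates 1 and 5). The cause was not tested.

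Without 1 library, genes called higher ranged from 894 to 1303 on TPM and 2485 to 3943 rescaled, and lower from 5581 to 9243 and 2144 to 4068, with 5581 without microglia replicate 2, and 2485 and 2144 without microglia replicate 3. Rescaled, without TAM replicates 1 to 4 and microglia replicates 1 and 2 in turn, 3478, 3816, 3295, 3380, 3197 and 2529 genes were higher, and 3484, 3859, 3270, 3379, 3046 and 2262 lower. Members were 1 to 2 higher and 4 to 7 lower on TPM, and 2 higher and 2 to 4 lower rescaled (4 without TAM replicate 2). Other G1 regulators ranged from 6 to 8 higher and 13 to 20 lower, rescaled 9 to 13 and 6 to 8. E2F targets ranged from 14 to 19 higher and 0 to 1 lower, rescaled 22 to 24 and 0. For p53 targets it was 2 higher and 8 to 14 lower, rescaled 5 to 8 and 4 to 6. For ratios these designs cannot reach p = 0.05 (the smallest exact permutation p is 0.0571 without a TAM library and 0.0952 without a microglia library), so their p-values say nothing about stability. With 1 TPM added, 5 ratios were at an adjusted p of 0.05 (exact permutation test), 4 of them at 0.0625 and Ccnd1 over Ccnd2 at 0.150 without it.

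Cdk6 also lost its call with age as a covariate (limma, adjusted p = 0.0734) and with no filter (adjusted p = 0.0657). Deviations of libraries with the same number correlated at 0.15, 0.014 and -0.051. TAM replicates 1 and 2 correlated best with the microglia library of their own number, and TAM replicate 3 with microglia replicate 1 (0.083). Correlations this small cannot tell whether the numbers pair the libraries. With the replicate number as a block, 1 member was higher and 6 lower, all genes 1103 and 8613, other G1 regulators 6 and 18, E2F targets 18 and 1, p53 targets 3 and 12. Under the block Cdkn1a was at -1.06 (limma, adjusted p = 0.0726), and Ccnd1 at -1.49, Ccnd3 at -1.79 and Cdkn2c at 1.38 kept their calls. For ratios the block leaves 3 pairs, where an exact sign-flip test cannot go below p = 0.25, so it could call none.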
